A study of Mus musculus with 19 samples.

Results

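The 8 genes examined here encode the parts of maturation promoting factor (MPF) and of the arrest of the mature mouse oocyte in metaphase II (MII): *Ccnb1*, *Ccnb2*, *Ccnb3*, *Cdk1*, *Mos*, *Wee2*, *Fbxo43* and *Cdc25b*. They were chosen by name, and all 8 were found among the 25891 genes of the table. RNA was sequenced from MII oocytes (5 libraries labelled CPEB3 Het, written CPEB3+/-, and 5 labelled CPEB3 KO, written CPEB3-/-) and from 2cell embryos (5 CPEB3+/- and 4 CPEB3-/- libraries). All came from BL6 females aged 6 to 10 weeks that were primed with PMSG (5 IU) and given hCG (5 IU) after 48 h. MII oocytes were matured in vivo, while zygotes were taken 17 h after hCG from mated females, cultured in M16 medium and collected as 2cell embryos at 37 h. The study's conditional knockout carries CPEB3 LoxP/LoxP with ZP3 Cre+/-, a Cre driven by the promoter of a zona pellucida gene of the oocyte. Its methods describe controls as CPEB3 LoxP/- with ZP3 Cre+/- or as CPEB3+/+. For the sequenced oocytes and embryos the paper names the groups CPEB3+/- and CPEB3-/-, and the labels Het and KO are read so here. The label of a 2cell library names the genotype of the female and not that of the embryo. Each library was made from 5 cells. Nothing says which libraries came from separate females, so p values measure the spread between these libraries, which may be technical.

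MPF is a kinase made of CDK1, encoded by *Cdk1*, and a B-type cyclin, without which the kinase is inactive. WEE2, a kinase of the oocyte, holds CDK1 inactive by phosphorylation, and the phosphatase CDC25B removes that phosphate, which lets the oocyte leave prophase. In MII the oocyte keeps MPF high until fertilisation: the kinase MOS starts the MAP kinase cascade, and FBXO43, also called EMI2, blocks the anaphase promoting complex (APC/C) that would mark cyclin B for destruction. CPEB3 belongs to the proteins that bind U-rich elements in 3′UTRs and take part in lengthening or shortening of poly(A) tails. The mature oocyte does not transcribe, and libraries of this kind are primed on the poly(A) tail, so that a message enters them through its tail.

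The end of each mRNA is shown for the 3 genes that differed between the genotypes and for *Wee2*, with the polyadenylation signal (PAS) and any U-rich element searched for near it. Whether CPEB3 acts at these sites was not tested, and the paper cites a limited affinity of CPEB3 for the canonical U-rich element. The sequences are from GRCm38 with the 3′ ends of GENCODE vM21, read 5′ to 3′ on the strand of the gene, with T for U. Capitals mark the PAS and, in *Wee2*, also the U-rich element TTTTAT.
Mos (chr4:3870661-3870690, minus strand): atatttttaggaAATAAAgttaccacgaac
Ccnb1 (chr13:100778656-100778685, minus strand): ctttatgttgctAATAAAcatagttttcga
Cdc25b (chr2:131198463-131198492, plus strand): gggccttggttcAATAAAgcactgagcaag
Wee2 (chr6:40466780-40466809, plus strand): tcattgtaAATAAAgaTTTTATcttatcca

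All 8 genes held a PAS (AATAAA or ATTAAA) in the last 100 bases of their longest annotated 3′UTR, as did 78.4% of 19934 genes with a 3′UTR of at least that length. The U-rich elements searched for were the shortest form TTTTAT with the longer TTTTAAT, the still longer TTTTAAAT as well as TTTTAAGT, and the variant TTTTACT together with TTTTCAT, on the strand of the mRNA only. None of them is part of another, and matches were counted wherever they began. At least 1 was found in 64.0% of 21037 3′UTRs. *Fbxo43* held 10 in a 3′UTR of 1584 bases and *Ccnb1* held 4 in 1028 bases. *Ccnb3* held 2 in 234 bases, *Wee2* 2 in 850 bases, *Cdk1* 2 in 3352 bases and *Ccnb2* 1 in 227 bases. In *Mos*, which has the shortest of these 3′UTRs, and *Cdc25b* (1128 bases) there were 0 matches to these letters. In *Wee2* the element lay 2 bases past the PAS, and in *Ccnb1* the nearest of these forms lay 113 bases from it. The paper gives the canonical element as UUUAU, a shorter form that was not searched for. The *Ccnb1* end printed above holds it (TTTAT) ahead of the PAS. By the forms searched for, the genes that differed between genotypes, described next, include 2 without a match and 1 with 4. A match to these letters is a description of the sequence and not a binding site.

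The deposited values are FPKM, fragment counts divided by the length given to the gene and by library size. The depth read from steps of 1 fragment among low values was about 17210000 to 23590000 fragments per library (median 19730000). Of 10 oocyte markers, 9 had a mean of at least 1 FPKM in MII libraries of both genotypes, with sums from 1226 to 1560 FPKM per library. Cumulus and granulosa cell markers (9 of 12 in the table) summed to at most 0.657 FPKM in any library. *Foxl2*, a granulosa cell factor, was at 0 in all MII libraries. The 8 markers of the 2cell stage summed to 38.0 to 45.2 FPKM in CPEB3+/- and to 46.5 to 62.2 FPKM in CPEB3-/- MII libraries, and their part in the differences between MII genotypes was not tested. The mean of *Cpeb3* itself in MII libraries was 0.0755 ± 0.0240 FPKM (SD) for the 5 of CPEB3+/- and 0.162 ± 0.0325 FPKM for the 5 of CPEB3-/-. It was thus higher and not lower in the libraries labelled KO, by 0.53 on the log2 scale with 0.1 FPKM added. A test needed 0.1 FPKM, which every CPEB3-/- library reached (lowest 0.131 FPKM) and most CPEB3+/- libraries did not (median 0.0700 FPKM). The difference is therefore a description, and it rests on about 7 fragments in the lowest CPEB3+/- library. With 1 value for the gene, the floxed part cannot be read separately, so the genotypes below are those of the labels.

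**Figure D1:**
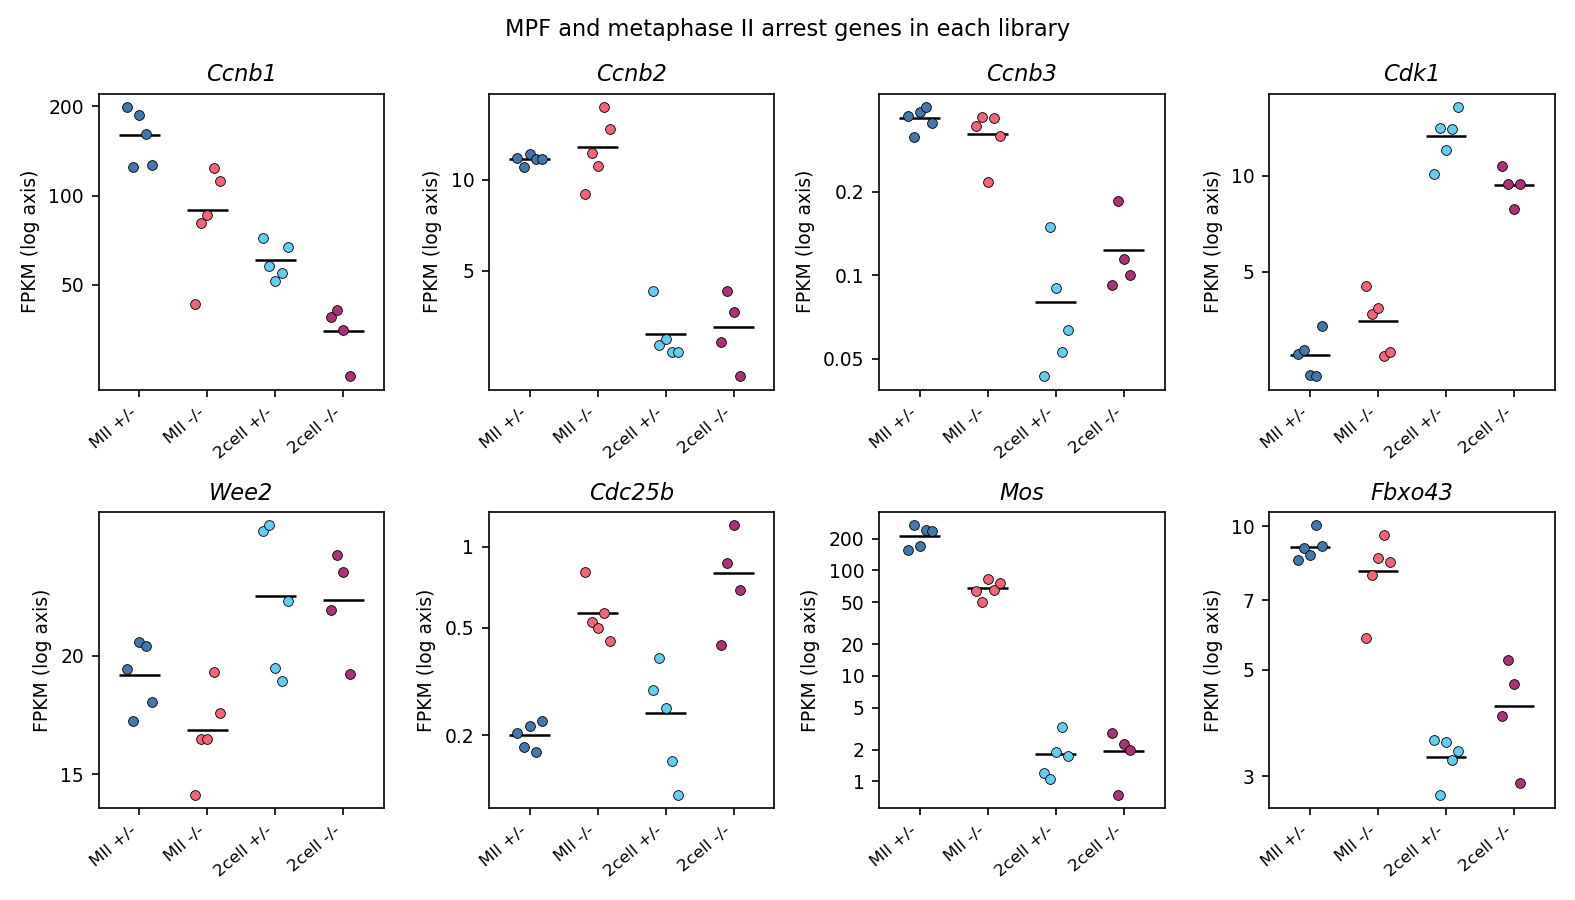
FPKM of the 8 genes (vertical log axes, each with its own range) in the MII and 2cell libraries labelled CPEB3+/- and CPEB3-/-, with 1 point per library in the order of the replicate letters and a line at the group mean. *Mos* lay between 157 and 266 FPKM in CPEB3+/- and between 50.5 and 82.9 FPKM in CPEB3-/- MII oocytes, and at 3.25 FPKM or below in every 2cell library.

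FPKM is a level per length, so the listed values of the 8 genes can be set in order within a stage. The length used for a gene with several transcripts is not given in the sources used here. The exons of the 7 annotated transcripts of *Ccnb1* cover 4217 bases, while its transcript with the longest 3′UTR has 2489. *Mos* has 1 transcript, of 1449 bases, so the order of *Mos* and *Ccnb1* is uncertain. In CPEB3+/- MII oocytes *Mos* (214 ± 47.8 FPKM, SD, n = 5) and *Ccnb1* (160 ± 33.7 FPKM) stood at the top with overlapping ranges. They were followed by *Wee2* (19.1 ± 1.59), *Ccnb2* (11.7 ± 0.391), *Fbxo43* (9.05 ± 0.592), *Cdk1* (2.74 ± 0.416), *Ccnb3* (0.367 ± 0.0342) and *Cdc25b* (0.200 ± 0.0228), and no neighbours below *Ccnb1* overlapped. In CPEB3-/- MII oocytes *Ccnb1* came before *Mos*, again with overlap, and *Cdc25b* stood above *Ccnb3*, with no overlap. The ranges of *Wee2*, *Ccnb2* and *Fbxo43* overlapped from neighbour to neighbour in that group. In 2cell embryos of both genotypes *Ccnb1*, *Wee2* and *Cdk1* led and *Mos* was the sixth, with *Ccnb1* and *Wee2* parted in CPEB3+/- and overlapping in CPEB3-/- embryos. *Mos* was thus among the most abundant messages of the oocyte (mean percentile 99.7 of all listed genes in CPEB3+/- MII libraries), while *Cdc25b* and *Ccnb3*, at few fragments per library, were the least abundant of the 8.

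To ask how the messages of the arrest differ between genotypes, MII libraries were compared first. Of the 8 genes, *Mos* and *Ccnb1* were lower and *Cdc25b* was higher in CPEB3-/- oocytes, by the rule that the adjusted p is below 0.05 and the change over 1.5-fold. These were 3 of 8 genes, where the rule called 12.9% of all 10515 genes tested (5.59% higher, 7.29% lower). The median log2 fold change was -0.26 over the 8 genes and 0.01 over all tested genes. *Ccnb2*, *Ccnb3*, *Cdk1*, *Wee2* and *Fbxo43* did not pass.

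*Mos*, the kinase that starts the MAP kinase cascade of the arrest (ENSMUSG00000078365, chr4:3870657-3872105, minus strand, a single exon in GENCODE vM21), showed the largest difference of the 8. Libraries A to E of CPEB3+/- MII oocytes were listed at 157, 266, 170, 241 and 234 FPKM. Those of CPEB3-/- oocytes were listed at 63.2, 50.5, 82.9, 65.8 and 75.2 FPKM. Every CPEB3-/- library thus lay well under every CPEB3+/- library, and the mean was 0.316 of the CPEB3+/- mean. The log2 fold change was -1.75 (standard error 0.16, 95% interval -2.10 to -1.40, adjusted p = 0.000152, limma). Of the 10515 genes tested only 30 had a lower fold change. A two-sided exact permutation test of *Mos* alone gave p = 0.00794, the smallest that 5 against 5 libraries allow. Each of the 10 fits with 1 library removed called *Mos*, as did all 10 alternative settings. Among the settings, summing *Ccnb1* with its pseudogenes, described below, does not bear on *Mos*. The message remained abundant, at a mean percentile of 99.2 in CPEB3-/- libraries.

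*Ccnb1*, the main cyclin of MPF (ENSMUSG00000041431, chr13:100778650-100786570, minus strand), was listed at 199, 125, 186, 161 and 127 FPKM in the CPEB3+/- libraries A to E. In the CPEB3-/- libraries it was listed at 43.1, 81.1, 86.1, 124 and 112 FPKM. The highest CPEB3-/- library lay just under the lowest CPEB3+/- library, and after scaling of the libraries the genotypes overlapped. The log2 fold change was -1.0 (standard error 0.302, 95% interval -1.67 to -0.33, adjusted p = 0.0403, limma; two-sided exact permutation p = 0.0159). This call was close to its limit. It was lost without CPEB3+/- library A, C or D or CPEB3-/- library B or C (adjusted p = 0.0940, 0.0950, 0.0766, 0.0777 and 0.0761), and with no filter on low genes (0.0856), over a range of 0.0117 to 0.0995 in all alternatives.

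The level of *Ccnb1* is uncertain for another reason. The processed pseudogene *Ccnb1-ps* (chr7:42105899-42107185, minus strand) matches the *Ccnb1* mRNA over 1287 bases with 10 mismatches, an identity of 99.2%, and its longest stretch without a mismatch is 278 bases. Of its windows of 150 bases, the length of a read, 26.9% are identical to *Ccnb1*, and a read from such a window can be placed only by its mate. The window below shows how few bases tell the copies apart elsewhere. It lies at transcript positions 1405 to 1434 of *Ccnb1*, and capitals mark the 2 bases at which the sequences differ.
Ccnb1: gcacagctgaactGtAcactagttcagaat
Ccnb1-ps: gcacagctgaactCtGcactagttcagaat

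The listed level of *Ccnb1-ps* in MII oocytes was above that of *Ccnb1* itself, with means of 481 ± 113 FPKM (SD) over the 5 libraries of CPEB3+/- and 259 ± 113 FPKM over the 5 of CPEB3-/-. Its ratio to *Ccnb1* within a library was 2.84 to 3.13 in CPEB3+/- and 2.08 to 3.17 in CPEB3-/- MII libraries, and 4.21 to 5.14 over the 2cell libraries. These ratios rest on the lengths used, since *Ccnb1-ps* has 1287 bases and the exons of *Ccnb1* together have 4217. As fragments over these lengths, the lowest CPEB3+/- MII library held about 9398 of *Ccnb1-ps* and 10441 of *Ccnb1*. How the authors' mapping shared fragments between the copies is not given in the sources used here. When the fragments of *Ccnb1* and its 4 listed copies (*Ccnb1-ps*, *Gm12856*, *Gm4870* and *Gm8416*) were summed, a choice made after seeing the data, the MII log2 fold change was -1.05 and its adjusted p was 0.0524, so the call was lost there. In 2cell embryos the sum was called, as given with the values of that stage.

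**Figure D2:**
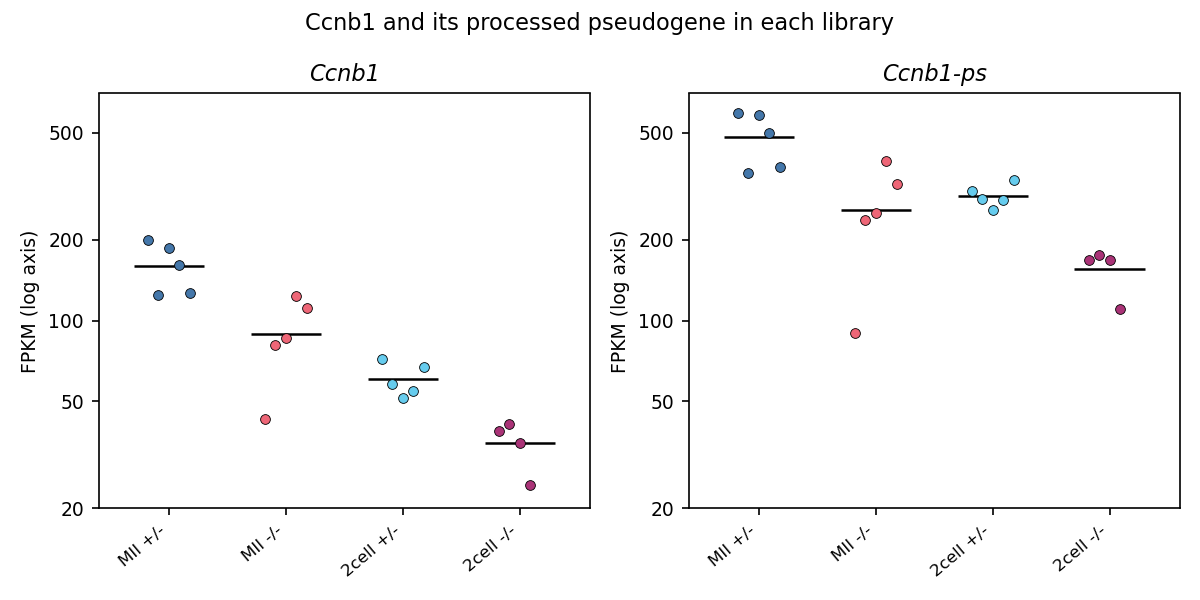
FPKM (vertical log axes with a common range) of *Ccnb1*, left, and of its processed pseudogene *Ccnb1-ps*, right, with 1 point per library and a line at the group mean. In every library *Ccnb1-ps* was listed 2.08 to 5.14 times higher than *Ccnb1*, and CPEB3-/- library A was lowest in MII oocytes in both panels.

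*Cdc25b*, the phosphatase that activates CDK1 (ENSMUSG00000027330, chr2:131186949-131198497, plus strand), moved the other way at a low level. It was listed at 0.204, 0.18, 0.216, 0.173 and 0.226 FPKM in CPEB3+/- and at 0.805, 0.527, 0.50, 0.568 and 0.447 FPKM in CPEB3-/- MII libraries A to E. All CPEB3-/- libraries lay above all CPEB3+/- libraries, and the mean was 2.85 times higher. The log2 fold change was 1.06 (standard error 0.14, 95% interval 0.76 to 1.36, adjusted p = 0.000836, limma; exact permutation p = 0.00794). Each of the 10 fits with 1 library removed called it. These values rest on about 13 fragments in the lowest CPEB3+/- and 36 in the lowest CPEB3-/- library, and with 1 FPKM added before the logarithm the difference fell under 1.5-fold (log2 fold change 0.36, adjusted p = 0.00150).

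The other 5 genes differed by less than their spread allows to call. Oocytes of CPEB3+/- held *Cdk1* at 2.74 ± 0.416 FPKM (SD, n = 5) and those of CPEB3-/- at 3.51 ± 0.753 FPKM (log2 fold change 0.24, 95% interval -0.06 to 0.53, adjusted p = 0.220). For *Wee2*, 19.1 ± 1.59 and 16.7 ± 1.81 FPKM gave -0.29 (-0.58 to -0.01, adjusted p = 0.124). For *Fbxo43*, the inhibitor of the APC/C, 9.05 ± 0.592 and 8.05 ± 1.38 FPKM gave -0.28 (-0.59 to 0.03, adjusted p = 0.176). The intervals of *Cdk1*, *Wee2* and *Fbxo43* reach to about 1.5-fold on 1 side. *Ccnb2*, the second cyclin of MPF, had 11.7 ± 0.391 and 12.9 ± 3.27 FPKM (0.00, -0.40 to 0.41, adjusted p = 0.987), with a spread in CPEB3-/- libraries (8.95 to 17.4 FPKM) far wider than in CPEB3+/- libraries (11.1 to 12.1 FPKM). *Ccnb3*, the cyclin that acts at the exit from meiosis I, had 0.367 ± 0.0342 and 0.323 ± 0.0637 FPKM (-0.23, -0.55 to 0.08, adjusted p = 0.261). In CPEB3-/- library A the values of *Ccnb1*, *Ccnb2*, *Wee2* and *Fbxo43* were the lowest and those of *Cdk1* and *Cdc25b* the highest of their group.

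In 2cell embryos *Ccnb1* was again lower and *Cdc25b* again higher in CPEB3-/-, while *Mos* was not called. These were 2 of 8 genes, beside 18.1% of the 14051 genes tested (8.53% higher, 9.54% lower). *Ccnb3*, which was not called, is counted in the 8 and in their median although it passed the filter only through the CPEB3-/- libraries. The median log2 fold change was 0.02 over the 8 genes and 0.00 over all. Scaled values did not overlap between genotypes for *Ccnb1*, *Cdk1* and *Cdc25b*, as for 20.5% of all tested genes, and in MII oocytes for *Mos* and *Cdc25b*, as for 16.7%.

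*Ccnb1* was listed at 71.8, 58.0, 51.4, 54.8 and 66.9 FPKM in CPEB3+/- embryos and at 38.8, 41.1, 35.1 and 24.5 FPKM in CPEB3-/- embryos. The groups did not overlap, and the CPEB3-/- mean was 0.576 of the CPEB3+/- mean. The log2 fold change was -0.86 (standard error 0.18, 95% interval -1.27 to -0.45, adjusted p = 0.0120, limma; exact permutation p = 0.00794, the smallest that 5 against 4 libraries allow). All 9 fits without 1 library called it, as did the sum with its copies (-0.95, adjusted p = 0.00612). Scaling each library to the sum of its FPKM ended the call (-0.52, adjusted p = 0.0642), as did the replicate letter as a block in limma (-0.82, adjusted p = 0.0642).

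*Cdc25b* was listed at 0.294, 0.385, 0.253, 0.161 and 0.120 FPKM in CPEB3+/- and at 0.433, 0.872, 1.2 and 0.690 FPKM in CPEB3-/- embryos. Every CPEB3-/- library again lay above every CPEB3+/- library, with a wide spread in both groups. The log2 fold change was 1.34 (standard error 0.32, 95% interval 0.62 to 2.05, adjusted p = 0.0182, limma; exact permutation p = 0.00794). The call was lost without CPEB3-/- library B or C (adjusted p = 0.0518 and 0.0540), and with 1 FPKM added before the logarithm the difference fell to 0.51, under 1.5-fold. It was also lost with the replicate letter as a block in limma (1.19, adjusted p = 0.0842).

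*Cdk1* was listed at 10.1, 14.2, 12.1, 14 and 16.5 FPKM in CPEB3+/- embryos and at 10.7, 9.41, 7.87 and 9.45 FPKM in CPEB3-/- embryos, with 1 CPEB3+/- library below the highest CPEB3-/- library. Its log2 fold change of -0.54 (95% interval -0.88 to -0.20) had an adjusted p of 0.0328 but was under 1.5-fold, so it was not called. It passed both limits without CPEB3+/- library A or C or CPEB3-/- library A (-0.63, -0.59 and -0.61, adjusted p = 0.0167, 0.0310 and 0.0436), and with no filter on low genes (-0.59, adjusted p = 0.0441). For *Mos*, CPEB3+/- embryos had a mean of 1.82 ± 0.874 FPKM (SD, n = 5) against 1.96 ± 0.894 FPKM (SD, n = 4) for CPEB3-/- (0.02, -0.86 to 0.90, adjusted p = 0.978). This interval is wide enough to hold a difference of 1.5-fold either way. The values of *Wee2* (-0.05, adjusted p = 0.871), *Ccnb2* (0.01, 0.977) and *Fbxo43* (0.27, 0.325) did not pass. *Ccnb3* was not called either (log2 fold change 0.30). It entered this test through the CPEB3-/- libraries, of which 3 of 4 reached the 0.1 FPKM of the filter, against 1 of 5 of CPEB3+/-. Its difference is therefore a description.

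**Figure D3:**
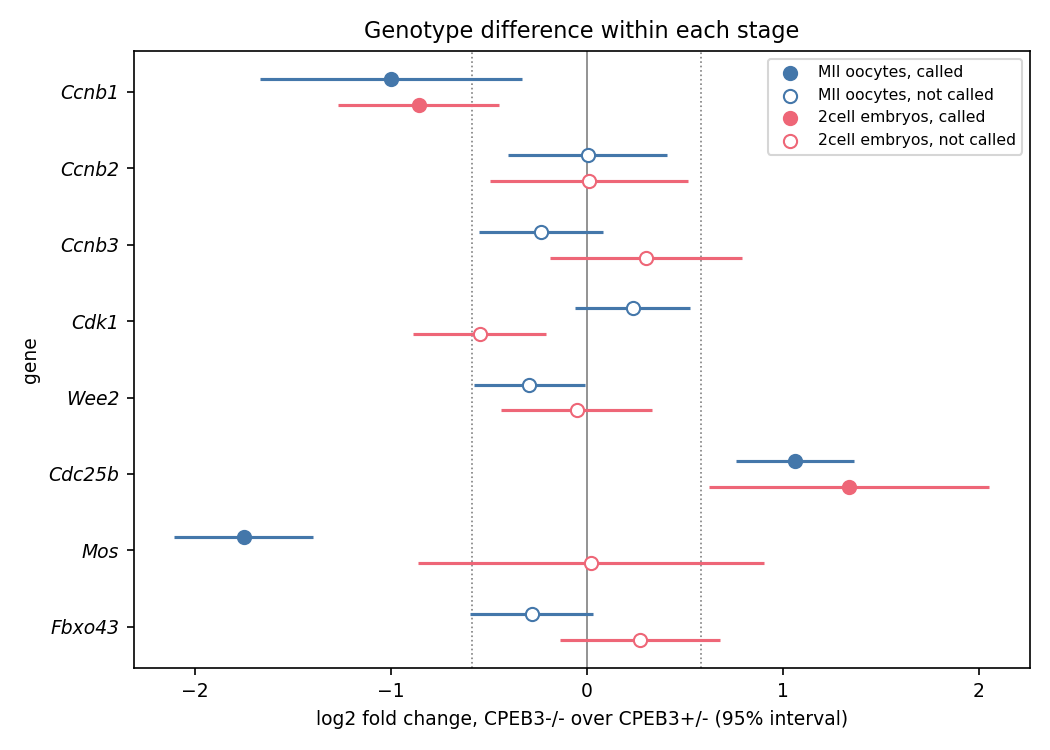
Log2 fold change of CPEB3-/- over CPEB3+/- libraries (horizontal axis) for each gene in MII oocytes and 2cell embryos, with bars for 95% intervals, filled points for called genes and dotted lines at 1.5-fold. *Ccnb1* lay at -1.0 and -0.86 and *Cdc25b* at 1.06 and 1.34, while *Mos* lay at -1.75 in MII oocytes and 0.02 in 2cell embryos.

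Whether the genotype effect itself differed between the stages was tested by the interaction of stage and genotype in all 19 libraries. It was called for *Mos* and *Cdk1*, 2 of 8 genes beside 8.05% of 15786 genes (3.76% higher, 4.28% lower). For *Mos* the effect in 2cell embryos was 1.79 higher on the log2 scale than in MII oocytes (standard error 0.432, 95% interval 0.88 to 2.70, adjusted p = 0.0159, limma), and all 19 fits without 1 library called it. With the replicate letter as a block in limma this call was lost (1.85, adjusted p = 0.0572). For *Cdk1* the effect was 0.76 lower, written as -0.76 (standard error 0.211, 95% interval -1.20 to -0.32, adjusted p = 0.0337), since the point estimate was 0.24 in oocytes and -0.54 in embryos. The call of *Cdk1* was lost in 9 of 19 fits without 1 library, those without CPEB3+/- MII library B or D, CPEB3-/- MII library A or B, CPEB3+/- 2cell library B, D or E, or CPEB3-/- 2cell library B or C (adjusted p from 0.0507 to 0.0694). It was also lost with scaling to the sum of FPKM (-0.62, adjusted p = 0.0810) and with the replicate block (-0.79, adjusted p = 0.0961). The effects on *Ccnb1* (difference 0.16, 95% interval -0.63 to 0.96, adjusted p = 0.846) and *Cdc25b* (0.26, -0.43 to 0.95, adjusted p = 0.695) were not shown to differ between the stages. *Fbxo43* (0.57, adjusted p = 0.132) passed without CPEB3-/- 2cell library D (0.73, adjusted p = 0.0436) and with the GC trend removed (adjusted p = 0.0394).

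Ratios of 2 genes within a library do not depend on how libraries are scaled, and are given as descriptions. The ratio of *Mos* to *Fbxo43*, both factors of the arrest, had a median of 24.1 (18.4 to 29.7) in CPEB3+/- and 8.95 (6.38 to 10.9) in CPEB3-/- MII libraries. *Ccnb1* to *Ccnb2*, the cyclins of MPF, stood at 13.8 (10.8 to 16.8) and 7.11 (4.82 to 7.77). *Wee2* to *Cdc25b*, the kinase and the phosphatase that act on CDK1 in opposite ways, stood at 95 (79.3 to 119) and 32.7 (17.7 to 39.0). None of these ranges overlapped between the genotypes in MII oocytes. Each sets a gene called there beside an uncalled one, so this restates the calls, and no share over other pairs of genes was computed. *Mos* to *Ccnb1*, both called lower, overlapped in MII oocytes (0.787 to 2.13 in CPEB3+/-, 0.532 to 1.47 in CPEB3-/-). In 2cell embryos the ranges did not overlap for *Ccnb1* to *Ccnb2* (16.8 to 24.8 against 9.59 to 13.3) and for *Wee2* to *Cdc25b* (71.3 to 190 against 20.5 to 51.7). They did for *Mos* to *Fbxo43*. *Ccnb1* to *Cdk1* overlapped in both stages, with medians of 68.5 and 22.5 in MII oocytes and of 4.09 and 3.99 in 2cell embryos.

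**Figure D4:**
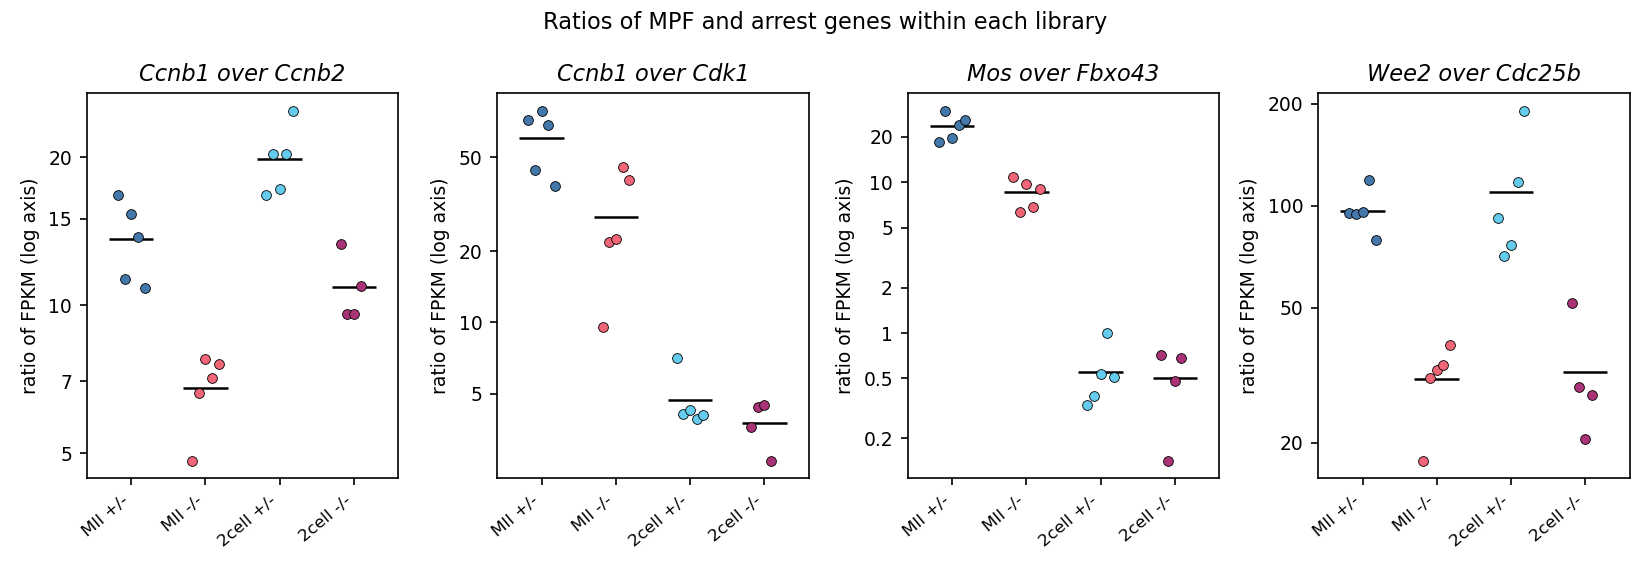
Ratios of FPKM within each library (vertical log axes) for 4 pairs of genes, with 1 point per library and a line at the group mean. CPEB3-/- MII oocytes lay between 4.82 and 7.77 for *Ccnb1* over *Ccnb2* and between 17.7 and 39.0 for *Wee2* over *Cdc25b*, below all CPEB3+/- MII oocytes.

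The comparison of 2cell embryos with MII oocytes asks how these messages differ after the arrest has ended and the embryo has cleaved. *Mos*, the 3 B-type cyclins and *Fbxo43* were lower in 2cell embryos and *Cdk1* was higher, in both genotypes. These were 6 of 8 genes in each genotype, or 5 of 7 in CPEB3+/- without *Ccnb3*, which passed the filter there only through its MII libraries, beside 69.5% of 12684 tested genes in CPEB3+/- (38.5% higher, 30.9% lower) and 67.2% of 13458 in CPEB3-/- (37.5% higher, 29.7% lower). Scaled values of those genes did not overlap between stages in either genotype, as for 65.2% of all genes in CPEB3+/- and 64.1% in CPEB3-/-. FPKM is relative to the total of a library, so a fall of 1 message and a rise of the total cannot be told apart. The 2 hemoglobin genes in the table (of 5 blood markers) summed to at most 0.428 FPKM in MII and to 46.2 to 146 FPKM in 2cell libraries, in both genotypes, and their part in the stage differences was not tested.

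*Mos* fell from 214 ± 47.8 to 1.82 ± 0.874 FPKM in CPEB3+/- (-7.00 on the log2 scale with a standard error of 0.26, adjusted p = 8.48e-10 by limma), and none of the 12684 genes tested had a lower fold change. In CPEB3-/- it fell from 67.5 ± 12.3 to 1.96 ± 0.894 FPKM (-5.26, standard error 0.324, adjusted p = 2.21e-07), and 5 genes had a lower one. The levels of the genotypes differed in the oocyte and ended side by side in the embryo, which is the interaction given above. *Ccnb2* fell by 2.03 and 2.04 on the log2 scale in CPEB3+/- and CPEB3-/-. *Ccnb1* fell by 1.51 and 1.39, and *Fbxo43* fell by 1.56 and 1.03. *Ccnb3* fell by 1.48 and 0.99, and the adjusted p values of these 3 cyclins and *Fbxo43* were 0.00248 or below in all 8 tests. Of the 2cell libraries, 1 of 5 of CPEB3+/- and 3 of 4 of CPEB3-/- reached the 0.1 FPKM of the filter for *Ccnb3*, so that in CPEB3+/- a difference was built into its selection and its fall is a description. It was near the limit of the depth, with about 3 fragments in its lowest 2cell library, and with the GC trend removed its difference in CPEB3-/- fell under 1.5-fold (-0.53). With 1 FPKM added before the logarithm it did so in both genotypes (-0.36 and -0.25).

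*Cdk1* rose from 2.74 ± 0.416 to 13.4 ± 2.38 FPKM in CPEB3+/- (2.11, standard error 0.144, adjusted p = 1.03e-07) and from 3.51 ± 0.753 to 9.37 ± 1.17 FPKM in CPEB3-/- (1.31, standard error 0.152, adjusted p = 2.22e-05). All 2cell libraries lay above all MII libraries. *Wee2* was not called in CPEB3+/- (0.13, adjusted p = 0.424) nor, being under 1.5-fold, in CPEB3-/- (0.35, adjusted p = 0.0424). Its direction turned to -0.52 and -0.12 when libraries were scaled to the sum of FPKM, a scaling that moved the median of all genes by -0.52 in CPEB3+/- and -0.36 in CPEB3-/-. With the GC trend removed *Wee2* passed in CPEB3-/- (0.60, adjusted p = 0.000837). *Cdc25b* was not called in either (0.05, adjusted p = 0.831, and 0.29, adjusted p = 0.314), and its direction turned likewise (-0.39 and -0.12). The genotype difference of *Cdc25b* was thus called at both stages, narrowly in embryos as given above.

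**Figure D5:**
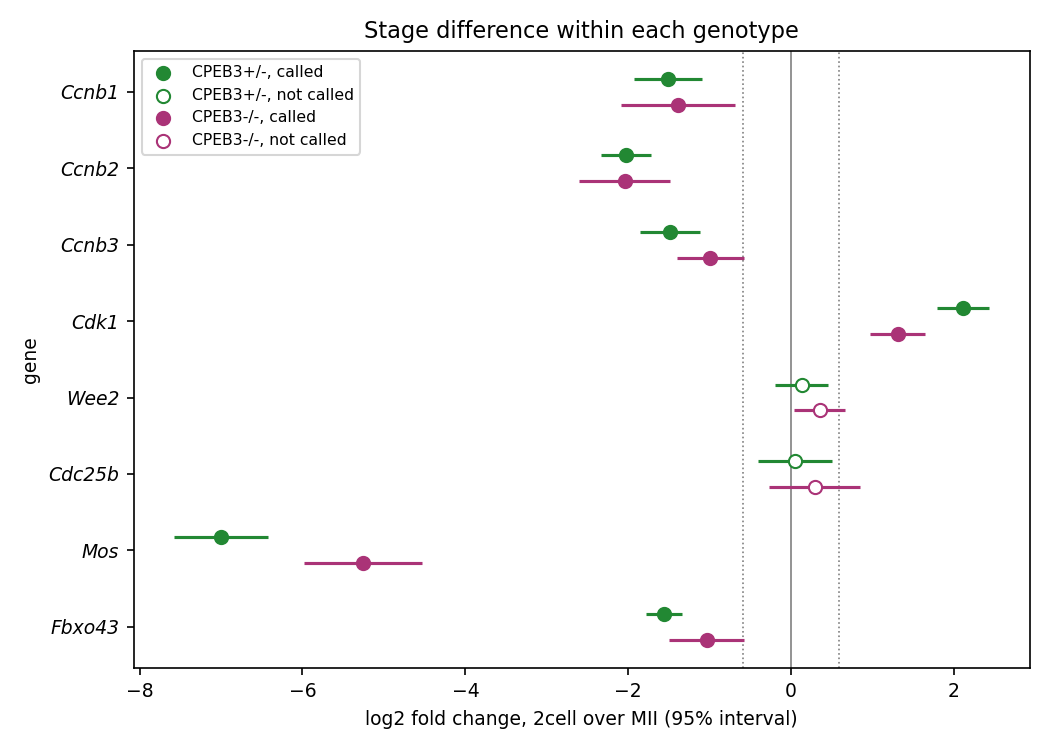
Log2 fold change of 2cell embryos over MII oocytes (horizontal axis) in CPEB3+/- and CPEB3-/- libraries, with bars for 95% intervals, filled points for called genes and dotted lines at 1.5-fold. *Mos* lay at -7.00 and -5.26, *Cdk1* at 2.11 and 1.31, and *Wee2* and *Cdc25b* near 0.

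The 63 other genes of the pathway were taken from 6 lists: other regulators of CDK1, other cyclins and CDKs, the MAP kinase cascade below MOS, the APC/C and mitotic exit, the Greatwall and PP2A branch, and the calcium signal that ends the arrest. In MII oocytes 50 of them were tested, and 3 were called higher and 3 lower in CPEB3-/-, which is 12.0% against 12.9% of all genes. In 2cell embryos 56 were tested, with 7 higher and 3 lower, 17.9% against 18.1%, with *Ccnd3* among the 7 although it passed the filter only through the CPEB3-/- libraries.

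Of the cascade below MOS, 2 of 5 tested genes were called higher in CPEB3-/- MII oocytes and neither with the GC trend removed. *Mapk3*, which encodes ERK1, had means of 2.37 ± 0.632 FPKM (SD, n = 5) for CPEB3+/- and 4.30 ± 0.586 FPKM for CPEB3-/- (log2 fold change 0.77, adjusted p = 0.00593, and 0.53, under 1.5-fold, with the GC trend removed). *Map2k2*, a kinase of the same cascade, was at 0.168 ± 0.0778 and 0.362 ± 0.163 FPKM (0.71, adjusted p = 0.0495). This call was at its limit. It was lost on the values as deposited (adjusted p = 0.0506), with 1 FPKM added (0.0623), with no filter (0.103), in one fit of all libraries (0.0699), with the GC trend removed (0.0701), and without any 1 library other than CPEB3+/- B or CPEB3-/- E (0.0538 to 0.117). The rest of the list was not called, and in 2cell embryos limma called 0 of 5 (1 at an unadjusted p under 0.05). The 9 tested regulators of CDK1 gave 0 calls in MII oocytes (3 at an unadjusted p under 0.05) and 2 in 2cell embryos. There *Pkmyt1*, an inhibitory kinase of CDK1, was at 0.395 ± 0.0900 and 0.725 ± 0.0940 FPKM (0.71, adjusted p = 0.0186). *Cdc25c*, an activating phosphatase, was at 1.70 ± 0.190 and 1.07 ± 0.252 FPKM (-0.68, adjusted p = 0.0199). Removing the GC trend ended both calls (0.39, adjusted p = 0.115, and -0.51, adjusted p = 0.0628), scaling to the sum of FPKM ended that of *Cdc25c* (-0.36, adjusted p = 0.192), and leaving out CPEB3-/- library D ended both (adjusted p = 0.0585 and 0.0551), as library A or C did for *Cdc25c* (0.0551 and 0.0512). Of the other cyclins and CDKs 0 of 5 were called in MII oocytes (3 at an unadjusted p under 0.05) and 1 of 7 in 2cell embryos, *Ccnd3*, at 0.0747 ± 0.0302 and 0.195 ± 0.0211 FPKM (0.75, adjusted p = 0.0172). It entered the test through the CPEB3-/- libraries, since 1 of 5 CPEB3+/- libraries reached the 0.1 FPKM of the filter, so its difference is a description. The call was lost with the GC trend removed (0.44, adjusted p = 0.127) and without CPEB3-/- library B or D (0.0565 and 0.0519).

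Among 19 tested genes of the APC/C and mitotic exit in MII oocytes, 1 was higher and 1 lower, and both were called in the same direction in 2cell embryos. *Fzr1*, an activator of the APC/C, had means of 0.293 ± 0.0400 FPKM for CPEB3+/- and 0.578 ± 0.123 FPKM for CPEB3-/- oocytes (0.69, adjusted p = 0.00590), and of 0.361 ± 0.0545 and 1.44 ± 0.293 FPKM in embryos (1.69, adjusted p = 0.00116). *Cdc26*, a small subunit of the APC/C, was at 2.83 ± 0.228 and 1.33 ± 0.309 FPKM in oocytes (-1.16, adjusted p = 0.00139) and at 1.37 ± 0.131 and 0.853 ± 0.107 FPKM in embryos (-0.67, adjusted p = 0.0106). With the GC trend removed *Fzr1* fell under 1.5-fold in oocytes (0.43), and with scaling to the sum of FPKM *Cdc26* was lost in embryos (-0.36, adjusted p = 0.116). In 2cell embryos *Plk1*, a mitotic kinase (0.80, adjusted p = 0.0103), and *Ube2s*, which extends ubiquitin chains for the APC/C (0.61, adjusted p = 0.00435), were also higher. *Plk1* was lost with the GC trend removed (0.51, adjusted p = 0.0526), and *Ube2s* lay just under 1.5-fold without CPEB3+/- or CPEB3-/- library B (0.58 and 0.57) and with no filter (0.56). With a filter of 1 FPKM, *Cdc26* and *Cdc25c* in embryos did too (-0.57 and -0.58).

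In the Greatwall and PP2A branch, *Arpp19*, an inhibitor of PP2A once phosphorylated, was called lower in both stages, in embryos only narrowly. It was at 1.85 ± 0.216 and 1.01 ± 0.169 FPKM in oocytes (-0.91, adjusted p = 0.00358) and at 1.62 ± 0.335 and 0.869 ± 0.334 FPKM in embryos (-0.92, adjusted p = 0.0429). The call in embryos was lost with scaling to the sum of FPKM (-0.61, adjusted p = 0.122), with no filter (0.0689), with the GC trend removed (-0.58, 0.140), and without any 1 library other than CPEB3+/- C or CPEB3-/- C (0.0643 to 0.0949). Of the scaffold subunits of PP2A, *Ppp2r1b* was lower in oocytes (-0.59, adjusted p = 0.0224) and *Ppp2r1a* higher in embryos (0.98, adjusted p = 0.00782). The difference of *Ppp2r1b* was at the limit of 1.5-fold and fell under it on the values as deposited (-0.53), scaled to the sum of FPKM (-0.48), in one fit of all libraries (-0.57), and in 6 of the 10 fits without 1 library (-0.58 to -0.51, those without CPEB3+/- C, D or E or CPEB3-/- A, B or D). With 1 FPKM added before the logarithm, *Arpp19*, *Ppp2r1a*, *Ppp2r1b*, *Fzr1* in oocytes, *Cdc26* in embryos, *Ube2s*, *Pkmyt1*, *Cdc25c*, *Ccnd3* and *Camk2g* all fell under 1.5-fold. The calcium list gave 0 of 3 calls in oocytes (2 at an unadjusted p under 0.05) and 1 of 4 in embryos, *Camk2g*, the kinase that triggers the destruction of FBXO43 after fertilisation, at 0.203 ± 0.0574 and 0.513 ± 0.181 FPKM (0.96, adjusted p = 0.0170).

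The genes most like each member in pattern were sought over the 19 libraries among 2863 genes with at least 5 FPKM in a group, by Pearson's r of log2 values, a measure dominated by the stages. *Mos* was closest to *Rdx* (r = 0.987), which had group means of 42.5, 24.3, 2.72 and 3.06 FPKM in CPEB3+/- and CPEB3-/- MII and 2cell libraries in turn. *Ccnb1* was closest to *Ccdc47* (r = 0.986), with means of 9.43, 4.66, 3.07 and 1.51 FPKM. *Cdc25b* had no partner as close, with *Atmin* first (r = 0.896) and *Wfdc15a* and *Gstp2* next (0.870 and 0.849). *Gstp2* was listed at 2.37 and 10.0 FPKM in CPEB3+/- and CPEB3-/- oocytes and at 2.96 and 10.1 FPKM in embryos. *Ccnb2* was closest to *Gm7049* (0.991), *Cdk1* to *Rbm8a* (0.984), *Fbxo43* to *Birc3* (0.987), *Ccnb3* to *Ezh2* (0.957) and *Wee2* to *Ube2d3* (0.917).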

How the data were processed

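RNA-seq of 19 libraries was analysed. According to the methods and labels, libraries were made with a SMART-seq v4 kit and read as 150 bp pairs. The authors trimmed reads with Trim Galore 0.4.1, mapped them to GRCm38 with HISAT2 2.0.5 and deposited FPKM values from SeqMonk, in a table named as if it held raw counts. Strand setting and annotation release are not given in the sources used here. The methods give quadruplicates, while each library of the labels was used. There were 0 columns not used.

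Each library was scaled by a trimmed mean of its log ratios (30% and 5% trimmed), and log2(FPKM + 0.1), a scale that understates changes of low genes, was fitted with limma 3.58.1 (R 4.3.3) with a variance trend, Benjamini-Hochberg adjustment over all tested genes, and no covariate. A gene was tested if it reached 0.1 FPKM in a number of libraries equal to the smaller group. For single genes an exact permutation test, two-sided, was added. Python 3.11.15 was used for the rest. Coordinates and sequences are from GRCm38 and GENCODE vM21 (25642 of 25891 names matched). The code was tested on simulated data. Genes of the 6 pathway lists were named where called, at most 4 in each direction per list and stage. The members and lists were chosen with earlier results of these data known.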

Additional observations from a re-analysis of the deposited data

Results flagged for a closer look

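The genotype effect on *Mos* differed between the stages, by 1.7922 on the log2 scale (2cell embryos minus MII oocytes), and that on *Cdk1* by -0.7604, both by the test of the interaction itself. For *Mos*, CPEB3-/- libraries lay below CPEB3+/- libraries in MII oocytes in 5 of 5 cases and overlapped with them in 2cell embryos. For *Cdk1* the genotypes overlapped in MII oocytes. *Ccnb2* in the 2cell library A of CPEB3+/- was at 4.2836 FPKM, apart from the other 4 (2.70 to 2.98 FPKM) by Dixon's test. This was the only one of 32 groups of values of the 8 genes so marked, where chance alone marks about 1 in 20.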

How the results depend on the processing

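*Mos* in MII oocytes kept its call and direction in all 10 alternatives and all 10 fits without 1 library, and the stage calls of *Mos*, *Ccnb1*, *Ccnb2*, *Fbxo43* and *Cdk1* held in each genotype without any 1 library and under every scaling. The use of unadjusted p, among the alternatives, can only loosen a call. The calls of the 8 genes numbered 3 in MII oocytes (2 to 3 without 1 library), and 2 each in 2cell embryos and for the interaction (both 1 to 3). In 2cell embryos they numbered 1 when scaled to the sum of FPKM, 1 with 1 FPKM added before the logarithm and 1 with a filter of 1 FPKM, which leaves out *Cdc25b*, but 3 with no filter. For the interaction they numbered 1 when scaled to the sum of FPKM, 3 with the GC trend removed and 4 by unadjusted p. Over all genes, adding 1 FPKM gave 481 calls in MII oocytes, 1162 in 2cell embryos, 5119 between stages in CPEB3+/- and 5264 in CPEB3-/-. The filter of 1 FPKM gave 774, 1496, 4167 and 4393, and 790 for the interaction, where unadjusted p gave 3660.

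Whether the replicate letters pair the libraries is not given in the sources used here. Deviations of libraries with the same letter had correlations of -0.377 to 0.199 between MII genotypes and -0.137 to 0.10 between 2cell genotypes. Those with different letters ranged from -0.47 to 0.478 between MII genotypes. With so few pairs and so wide a spread, these values cannot show whether the letters mark a batch. With the letter as a replicate block in limma, which drops CPEB3+/- 2cell library E for want of a partner, calls numbered 824 of all genes in MII oocytes, 440 in 2cell embryos and 377 for the interaction. Of the 8 genes, 0 were called in 2cell embryos and 0 for the interaction, and 3 in each had an unadjusted p under 0.05. With the GC trend also removed, 0 of all genes were called in 2cell embryos (3284 at unadjusted p), 0 of the 8 (5 at unadjusted p), 1 of the 8 for the interaction, and 425 of all genes there. The blocked adjusted p was 0.0995 for *Ccnb1* in MII oocytes, 0.0642 for *Ccnb1* and 0.0842 for *Cdc25b* in 2cell embryos, and 0.0572 for *Mos* and 0.0961 for *Cdk1* in the interaction. Of the named pathway genes, *Map2k2* in MII oocytes lost its call under the block, and of the 10 called in 2cell embryos *Fzr1* alone kept it.

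The turns of direction were among genes that were not called. For *Ccnb2* in MII oocytes the log2 difference was -0.0197 with no filter and -0.0157 with the GC trend removed, with and without the replicate block. In 2cell embryos it was -0.0314, -0.0345 with the block and -0.0245 with block and GC, and for the interaction -0.0456 as deposited and -0.0454 with no filter. *Mos* in 2cell embryos gave -0.0219 with no filter, -0.1824 with GC removed and -0.1701 with the block as well. *Wee2* there gave 0.289 scaled to the sum, 0.0584 with the filter of 1 FPKM, 0.071 with GC removed and 0.0667 with the block as well. Between stages, scaling to the sum turned *Wee2* to -0.5234 in CPEB3+/- (adjusted p = 0.00225) and -0.1182 in CPEB3-/-, and *Cdc25b* to -0.3947 and -0.1189. *Cdc25b* in CPEB3+/- also gave -0.0014 in one fit of all libraries and -0.1455 with GC removed, with and without the block. With GC removed and the block it gave -0.0385 in CPEB3-/- and -0.0011 for the interaction. Without 1 library, turns gave ranges of -0.1257 to 0.1491 for *Ccnb2* in MII oocytes, -0.1363 to 0.1649 in 2cell embryos and -0.1189 to 0.1834 for the interaction, of -0.196 to 0.3936 for *Mos* and -0.1265 to 0.0242 for *Wee2* in 2cell embryos, of -0.0916 to 0.3161 for the *Ccnb1* interaction, and of -0.0332 to 0.2132 for *Wee2* and -0.0821 to 0.2023 for *Cdc25b* between stages in CPEB3+/-. The cause was not tested.

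Genes under about 1 FPKM, *Cdc25b* and *Ccnb3* among them, rest on few fragments, and counts were not used here.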
